A study of Homo sapiens with 6 samples.

Results

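EBI3 and the other genes of IL6 family signalling were followed here at the mRNA level in OVCA432 cells treated with recombinant MFAP5, a secreted protein of extracellular microfibrils. OVCA432 is an established line of human high grade serous ovarian cancer. The set was a list of 10 genes: the cytokine genes EBI3, IL6, LIF and CLCF1, the receptor genes IL6ST, LIFR, OSMR and IL27RA, the transcription factor gene STAT3 and the inhibitor gene SOCS3. Every probe set that the platform annotation assigned to one of these symbols alone was taken, which gave 29 of the 41091 probe sets with a single symbol. They covered 9 of the 10 genes, and CLCF1 was not analysed here because no probe set carried its symbol alone in that annotation. Of the 29 probe sets, 23 passed a filter on brightness and 6 did not, and both kinds are described. The genes were chosen by the difference in log2 signal between the MFAP5 and control arrays, which was already known for some of them and was largest for EBI3. Their own differences are therefore a description: no p-value is printed for them, and where one is said to be called, the word only places it in the fit over all probe sets and supports nothing.

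The MFAP5 group received 200 ng/mL of recombinant human MFAP5 in serum-free medium, and the control group received the solvent in the same medium. Both groups had been without serum for 24 h beforehand, and RNA was taken 48 h after the additions. Each group had 3 samples, described as independent and each hybridised to its own Affymetrix U133 Plus 2.0 array. The groups share a single cell line, so the spread between arrays covers that line alone.

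Cytokines of the IL6 family signal through IL6ST (gp130), a receptor chain found on most cell types. IL6 first binds its own receptor chain, whereas LIF joins gp130 to LIFR, and oncostatin M joins gp130 to OSMR or LIFR. EBI3 is a secreted protein related to the soluble form of cytokine receptors. It pairs with the p28 chain, the product of the gene IL27, to form a cytokine that is read by gp130 together with IL27RA, and it can also pair with the product of IL12A. The receptors activate JAK kinases, which phosphorylate STAT3, and STAT3 induces SOCS3, which in turn blocks gp130. Autocrine IL6 and STAT3 signalling is well known in ovarian cancer.

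The values were MAS5 signals, a linear measure of probe set brightness, which had been scaled to the same trimmed mean on every array. Arrays within a group correlated more closely (r = 0.984 to 0.988) than an MFAP5 with a control array (0.967 to 0.971). These correlations run over log2 signals of the 27307 probe sets past the brightness filter, themselves no replicates. The brightest of the 27 probe sets for Bacillus RNA, which human cells do not make, had a signal of 26.4 to 55.9 per array and served as a mark for background. All 9 epithelial and ovarian markers lay above that mark on all 6 arrays. Of these, 5 were called (limma, adjusted p below 0.05), beside 29.9% of all genes past the filter. MUC16 was 3.63-fold, PAX8 1.45-fold, KRT7 1.32-fold and EPCAM 1.24-fold higher with MFAP5, and WT1 was 1.33-fold lower. EPCAM was at the edge of the threshold (limma adjusted p = 0.0489), and its groups overlapped. The part of these markers in the results was not tested. Of the 7 leukocyte markers with a probe set, 1 (CD79A) passed the brightness filter, with a log2 fold change of 0.00017 on probe set 1555779_a_at. The other CD79A probe set, 205049_s_at, lay at or below the mark on every array, as did LYZ. The leukocyte marker signals summed to 283 to 338 on MFAP5 arrays and 242 to 373 on control arrays. Of 8 stromal and endothelial markers, 3 passed the filter and 0 were called (limma, 0 with an unadjusted p below 0.05), with sums of 425 to 534 on MFAP5 arrays and 401 to 451 on control arrays. VWF came nearest, 2.29-fold higher with overlapping groups (limma unadjusted p = 0.0534). The control mean signals of VWF (45.0) and CDH5 (51.3) were below the filter signal of 53.7, so both passed through their MFAP5 arrays. The log2 ratio of 3' to 5' control probe sets was -0.10 on MFAP5 arrays and -0.13 on control arrays for GAPDH, and 0.28 on MFAP5 arrays and 0.30 on control arrays for ACTB (exact permutation test, two-sided, p = 0.5 and 0.6, where 0.1 is the smallest possible). Bulk RNA cannot tell fewer cells making a transcript from less transcript per cell.

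The promoters of EBI3, IL6 and OSMR are shown because these genes had the largest rises of the set. Each is the 250 bases before the RefSeq gene start on the gene's own strand, 5' to 3', in build GRCh38.p14. RefSeq windows were at hand for 8 of the 9 measured genes. Capitals mark matches, on either strand, to TGACGT (the core of the CRE, bound by CREB), TGANTCA (AP-1), TTCNNNGAA (STAT) or the NF-kappaB consensus. No match overlapped another in the windows printed.
EBI3, chr19:4229273-4229522, plus strand: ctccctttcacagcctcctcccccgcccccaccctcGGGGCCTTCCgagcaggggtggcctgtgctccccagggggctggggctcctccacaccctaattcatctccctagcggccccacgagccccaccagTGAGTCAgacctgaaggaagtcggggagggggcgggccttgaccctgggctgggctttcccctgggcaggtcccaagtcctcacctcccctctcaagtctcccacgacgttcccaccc
IL6, chr7:22726950-22727199, plus strand: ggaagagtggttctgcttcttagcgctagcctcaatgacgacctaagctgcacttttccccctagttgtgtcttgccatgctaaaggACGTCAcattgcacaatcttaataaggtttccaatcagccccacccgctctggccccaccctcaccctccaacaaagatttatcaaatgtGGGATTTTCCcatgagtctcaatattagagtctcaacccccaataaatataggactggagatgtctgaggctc
OSMR, chr5:38845762-38846011, plus strand: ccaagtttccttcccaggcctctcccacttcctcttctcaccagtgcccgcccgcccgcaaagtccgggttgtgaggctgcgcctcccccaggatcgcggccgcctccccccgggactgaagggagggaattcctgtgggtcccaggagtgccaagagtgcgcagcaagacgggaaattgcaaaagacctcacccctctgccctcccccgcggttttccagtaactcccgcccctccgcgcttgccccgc
The EBI3 window held an AP-1 match that begins 118 bases before the start and an NF-kappaB match at 214 bases. The IL6 window held a CRE core at 163 bases and an NF-kappaB match at 73 bases. The OSMR window held none of the 4 motifs. Of the other 5 genes, IL27RA and IL6ST had an NF-kappaB match and LIFR had a STAT match in 2 of its 3 windows, while STAT3 and SOCS3 had none. Among all 35116 promoter windows of this length, 7.10% held the CRE core, 6.57% the AP-1 motif, 6.57% the STAT motif and 9.96% the NF-kappaB consensus. These are matches of letters, and binding was not measured.

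With MFAP5, the cytokine genes EBI3, IL6 and LIF, the receptor genes OSMR, IL6ST and IL27RA, and STAT3 were higher by the brightest probe set of each gene. LIFR was the exception among the receptors, with log2 fold changes below 0 on all its probe sets, and SOCS3 lay close to its control level. Genes were called at an adjusted p below 0.05 in a limma fit over all 27307 probe sets past the filter. By this rule 7 of the 9 genes were called higher, among them IL6, which passed the filter through its MFAP5 arrays alone, and the other 2 were not called. In the whole series 14.6% of 12216 genes were called higher and 15.3% lower, and nothing is read from the comparison because the genes were listed with this contrast known. The median log2 fold change of the 9 genes was 0.68, beside -0.0084 for all genes. By probe set, 12 of 23 were called higher and 2 lower, beside 13.5% and 11.8% of all probe sets past the filter (25.2% in either direction). The groups did not overlap for 15 of the 23, beside 41% of all, of which 21.9% had every MFAP5 array above and 19.1% every MFAP5 array below.

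**Figure D1:**
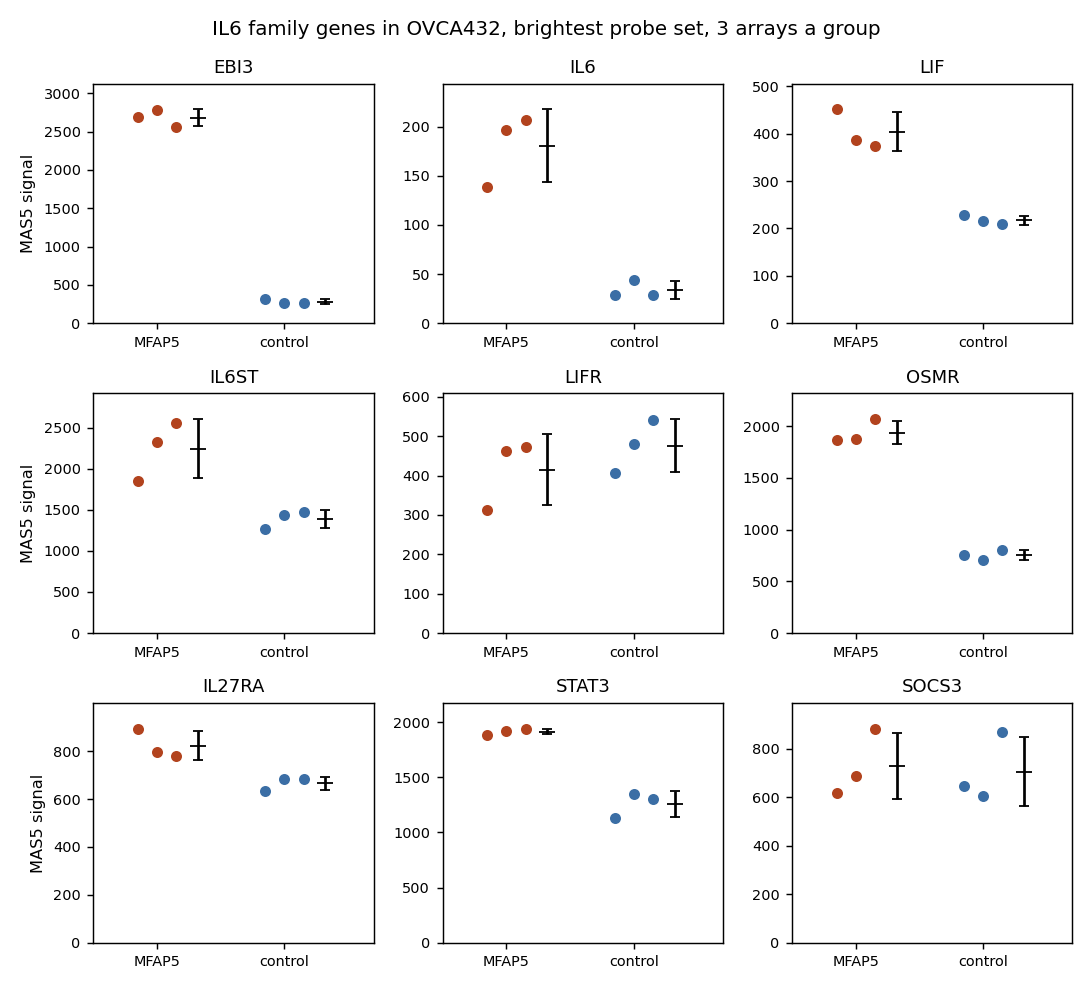
MAS5 signal (vertical axes, linear from 0) of the brightest probe set of each measured gene on the 3 MFAP5 arrays and the 3 control arrays. Points are arrays, and the bar beside them is the mean with its SD (n = 3). The groups do not overlap for 7 of the 9 genes, beside 41% of all probe sets past the filter, and they overlap for LIFR and SOCS3. Nothing is read from this count, because the genes were listed with this contrast known.

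EBI3, the chain shared by the cytokines named above, had signals of 2695, 2782 and 2560.0 on the MFAP5 arrays and 316, 264 and 261 on the control arrays (probe set 219424_at). The groups lay far apart and varied little, with a mean of 2679 ± 112 with MFAP5 and 280.2 ± 31.0 in controls (SD, n = 3 each). EBI3 was thus 9.59-fold higher, a log2 fold change of 3.26 ± 0.10 (SE). It ranked 5 of 12216 genes by fold change, from a level in controls that was already above the Bacillus mark on all 3 arrays.

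The gene of IL6, the founding cytokine of the family, had signals of 138, 197 and 207 on the MFAP5 arrays and 28.9, 44.3 and 28.8 on the control arrays (205207_at). Only control replicate 2 was above the Bacillus mark of its array, so the control level is close to background. Its mean signal was 180.6 ± 37.1 with MFAP5 and 34.0 ± 8.93 in controls (SD, n = 3 each), a 5.34-fold difference (log2 fold change 2.42 ± 0.28 SE). With 50 added to each signal the fold was 2.73.

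LIF, a cytokine that binds LIFR, had signals of 451, 387 and 374 with MFAP5 and 228, 216 and 209 in controls (205266_at). Every MFAP5 array was above every control array, and the fold was 1.85 (log2 fold change 0.89 ± 0.13 SE).

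OSMR, the receptor chain specific to oncostatin M and to the cytokine of the IL31 gene, showed the largest difference among the receptors. Its brightest probe set (226621_at) had signals of 1869.8, 1873 and 2067 with MFAP5 and 757, 705 and 807 in controls. It was 2.56-fold higher (log2 fold change 1.36 ± 0.08 SE). The other probe sets, 1554008_at and 205729_at, were 1.93-fold and 2.09-fold higher, and all 3 separated the groups without overlap.

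IL6ST, which encodes the shared chain gp130, had signals of 1858, 2324 and 2562 with MFAP5 and 1269, 1434 and 1477 in controls on its brightest probe set (212195_at). The groups did not overlap, and the fold was 1.60 (log2 fold change 0.68 ± 0.12 SE). Probe set 211000_s_at gave a similar 1.64-fold, with 555, 568 and 472 on MFAP5 arrays and 275, 326 and 378 on control arrays. The other 3 probe sets past the filter did not separate the groups. Their log2 fold changes were 0.45 ± 0.24 for 204863_s_at, 0.06 ± 0.24 for 204864_s_at and 0.14 ± 0.10 for 212196_at (SE). The size of the IL6ST rise therefore depended on the probe set, and the mean over the 5 probe sets was 1.33-fold. A further pair of probe sets, 234474_x_at and 234967_at, was at or below the Bacillus mark on all 6 arrays.

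IL27RA, the partner of gp130 for the cytokine that contains EBI3, differed little. Its brightest probe set (222062_at) had signals of 892, 795 and 779 with MFAP5 and 634, 682 and 682 in controls, without overlap. The fold was 1.23 (log2 fold change 0.30 ± 0.09 SE), and its call was lost under 11 of 15 alternative settings, including the removal of any 1 of the 6 arrays. Probe set 205926_at was 1.32-fold higher, also without overlap, and was not called. Probe set 217702_at was at or below the Bacillus mark on all arrays.

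LIFR ran the other way. Probe set 227771_at had signals of 320, 284 and 343 with MFAP5 and 474, 414 and 525 in controls. Probe set 205876_at had 67.6, 46.9 and 71.5 with MFAP5 and 102, 115 and 118 in controls. Neither pair of groups overlapped, and both probe sets fell, by 0.57 ± 0.13 and 0.87 ± 0.25 on the log2 scale (SE). The brightest probe set, 225575_at, had 312, 462 and 472 with MFAP5 and 408, 480.3 and 541 in controls, which overlap, and a log2 fold change of -0.21 ± 0.17 (SE). Probe set 225571_at, at -0.67 ± 0.33 (SE), also overlapped, and 229185_at was at or below the Bacillus mark throughout. For 225571_at the mean signal was 52.0 with MFAP5, below the filter signal of 53.7, and 83.2 in controls. It thus passed the filter through its control arrays. The gene was called lower when its 4 probe sets past the filter, 225571_at among them, were averaged (log2 fold change -0.58). An average without 225571_at was not fitted. The call of 205876_at was lost with no filter on low values, without MFAP5 replicate 2 and without any 1 of the control arrays.

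STAT3, the transcription factor that the receptors activate, rose on all 3 of its probe sets past the filter. Its brightest (208991_at) had signals of 1886, 1919 and 1933 with MFAP5 and 1126, 1348 and 1307 in controls. The MFAP5 arrays lay within a narrow range above all control arrays, and the fold was 1.52 (log2 fold change 0.61 ± 0.08 SE). Probe sets 208992_s_at and 225289_at were 1.63-fold and 1.48-fold higher. The dim probe set 243213_at had 59.1, 47.0 and 38.4 with MFAP5 and 21.7, 12.6 and 21.8 in controls, and all 3 control arrays lay at or below the Bacillus mark, so it was at least 1.23-fold higher.

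SOCS3, the inhibitor that STAT3 induces, was not called on any of its 3 probe sets past the filter. Its brightest probe set (227697_at) had signals of 620, 690 and 882 with MFAP5 and 645, 605 and 868 in controls. The groups overlapped, with a log2 fold change of 0.05 ± 0.16 (SE) whose sign turned under 5 of the 15 alternatives. Probe sets 206359_at and 206360_s_at had log2 fold changes of 0.34 ± 0.28 and 0.40 ± 0.23 (SE), and the dim 214105_at had -0.35.

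**Figure D2:**
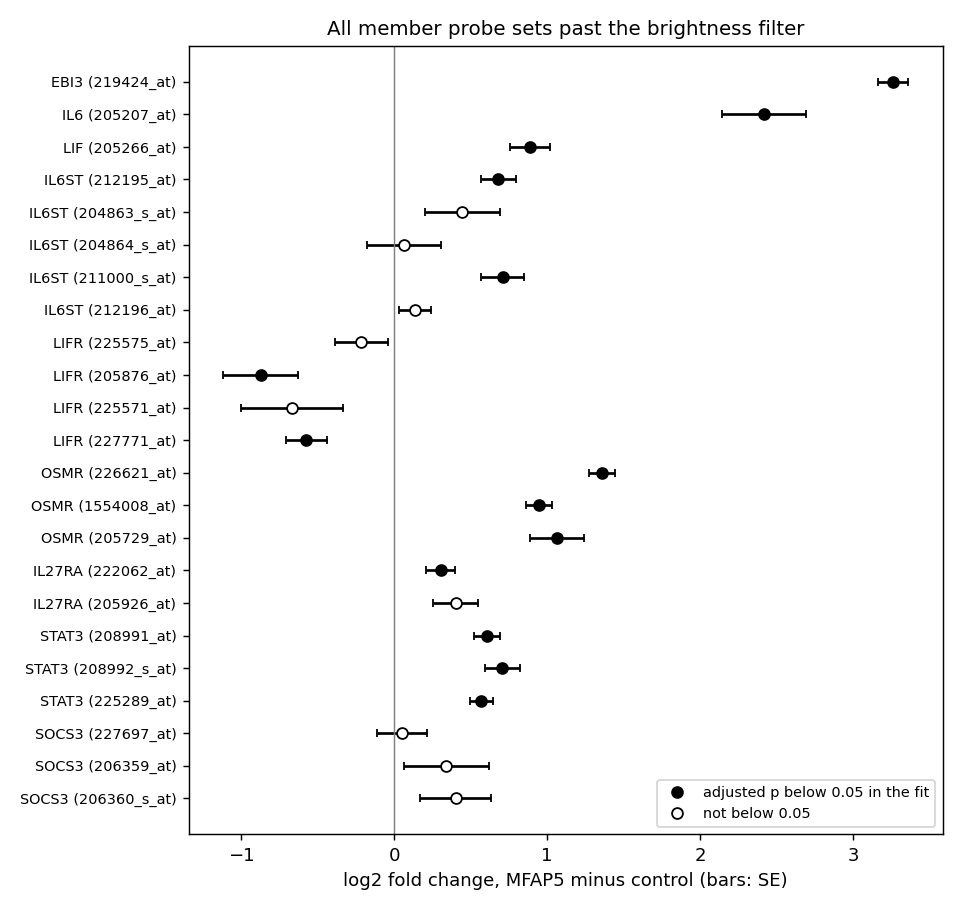
Log2 fold change, MFAP5 minus control, of the 23 probe sets past the brightness filter (rows), with SE bars from the limma fit on 3 against 3 arrays. Filled points had an adjusted p below 0.05 over all 27307 probe sets. The OSMR and STAT3 probe sets lie together above 0, those of IL6ST spread between 0.06 and 0.71, and those of LIFR lie below 0.

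The other genes of the pathway were taken from lists by role. Of 63 genes, 57 had a probe set and 40 passed the brightness filter, of which 14 were higher, 4 lower and 22 not called (limma, adjusted p below 0.05). This is 45.0%, beside 29.9% of all genes. The median log2 fold change of the 40 was 0.21, beside -0.0084 for all 12216 genes tested. Nothing is read from either comparison, because the lists were chosen with earlier results of these data known. The 14 include NNMT, which passed the filter through its MFAP5 arrays alone. Beside the counts of each list below stand the shares over all genes, 14.6% called higher and 15.3% lower.

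Partner cytokines were mostly near background. IL27, which encodes the p28 partner of EBI3, had signals of 4.44, 3.34 and 5.40 with MFAP5 and 4.54, 10.2 and 4.04 in controls, below the Bacillus mark on all 6 arrays. IL12A, the other partner chain of EBI3, had 141, 194 and 173 with MFAP5 and 263, 212 and 251 in controls. These groups did not overlap, but IL12A narrowly missed the threshold (log2 fold change -0.52 ± 0.17 SE, limma adjusted p = 0.0521). It was called lower with quantile normalization (adjusted p = 0.0224), with centring on array medians (0.0171) and in the fit of 1 mean value per gene (0.0305). CTF1, IL11, CNTF and OSM did not pass the brightness filter. IL27 was named for its pairing with EBI3, after its values were seen.

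Of 6 receptor genes for related cytokines, 3 passed the filter and 0 were called (limma, 0 with an unadjusted p below 0.05). IL11RA, the binding chain for IL11, had a difference of 0.51 ± 0.26 in log2 signal (SE, limma adjusted p = 0.182) and was called without control replicate 3 (adjusted p = 0.0298). CNTFR had -0.62 ± 0.37 (SE, limma adjusted p = 0.253), with signals of 80.0, 30.8 and 54.4 with MFAP5 and 71.3, 105.7 and 64.8 in controls. Its mean log2 signal with MFAP5 was below the filter level, so CNTFR passed through its control arrays. MFAP5 replicate 2 lay below the Bacillus mark of its array. IL6R, the binding chain for IL6, named after its values were seen, had signals of 554, 594 and 608 with MFAP5 and 494, 532 and 596 in controls, which overlap (limma adjusted p = 0.459).

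Among the kinases and STAT genes, 1 of 6 was higher and 0 were lower (limma, 0 of them with an unadjusted p below 0.05). JAK1, a kinase bound to gp130, had signals of 6820, 6188 and 5229 with MFAP5 and 4835, 4702 and 4070 in controls, a 1.34-fold rise (limma adjusted p = 0.0136). JAK1 missed the threshold when MFAP5 replicate 2 was left out (adjusted p = 0.0543), with centring on hybridisation controls (0.0695), without an intensity trend (0.0708) and in the fit of 1 mean value per gene (0.0553). The other 5, JAK2, JAK3, TYK2, STAT5A and STAT5B, had log2 fold changes from -0.0087 to 0.19. STAT4 did not pass the filter.

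Of 9 inhibitors and phosphatases, 1 was higher, 2 were lower and 6 were not called, close to the 29.9% of all genes called in either direction. SOCS2, an inhibitor related to SOCS3 and best known from growth hormone signalling, fell, with signals of 202, 214 and 178 with MFAP5 and 317, 347 and 424 in controls. It was 1.82-fold lower (limma adjusted p = 0.00266). Another SOCS2 probe set, 203372_s_at, passed the filter through its control arrays alone, with 50.4, 43.8 and 40.4 with MFAP5 and 132.6, 109 and 83.6 in controls. PTPN11, the phosphatase SHP2, which docks on gp130, rose 1.28-fold on its brightest probe set (limma adjusted p = 0.00603). The PTPN11 call was lost with centring on array medians (adjusted p = 0.0647) or on hybridisation controls (0.131) and in the fit of 1 mean value per gene (0.160). Its probe set 209896_s_at was also called higher (log2 fold change 0.25). The groups overlapped for 205868_s_at (-0.15) and 209895_at (0.10), which were not called. PTPN2, a phosphatase that acts on JAK kinases and STAT proteins, was 1.24-fold lower at the edge of the threshold (limma adjusted p = 0.0499), a call lost under 9 of 15 alternatives. SOCS1 and CISH were not called.

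Of 15 genes known as STAT3 targets in various cells, 9 were higher, 2 lower and 4 not called, with a median log2 fold change of 0.39. Over all genes 14.6% were called higher and 15.3% lower. FOS, a subunit of AP-1, had signals of 244, 236 and 247 with MFAP5 and 109, 119 and 123 in controls, a 2.08-fold rise (limma adjusted p = 0.00095). VEGFA, an angiogenic growth factor, had 8879, 9639 and 10442 with MFAP5 and 4876, 4471 and 4583 in controls, also 2.08-fold (limma adjusted p = 7.48e-06). JUNB, another AP-1 subunit, rose 1.59-fold (limma adjusted p = 0.0174), a call lost without MFAP5 replicate 2 (adjusted p = 0.0716) or control replicate 2 (0.0592). The 2 that fell were BIRC5, the mitotic and survival protein survivin, at 1.66-fold lower (limma adjusted p = 0.00063), and MYC, at 1.47-fold lower (limma adjusted p = 0.0069). MYC was named because it went against most of the list. The kinase gene PIM1, a commonly used readout of STAT3, named after its values were seen, had 446, 396 and 411 with MFAP5 and 421, 464 and 361 in controls (limma adjusted p = 0.948). CEBPB, CEBPD, CCND1, BCL2L1 and PIM3, also named after their values were seen, were higher by 0.36 to 0.67 on the log2 scale. For MCL1, a survival gene, the probe sets disagreed, with the brightest called higher (log2 fold change 0.24) and 200798_x_at called lower (-0.40). Most of these genes also answer to other pathways, so their count does not measure STAT3 activity.

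The acute phase list holds genes that IL6 induces in liver cells. Of 14 with a probe set, 6 passed the filter, of which 3 were higher, 0 lower (limma, 0 of them with an unadjusted p below 0.05) and 3 not called. The protease inhibitor gene TIMP1 had signals of 1137, 974 and 903 with MFAP5 and 177, 201 and 207 in controls, a 5.14-fold rise (limma adjusted p = 1.41e-06). NNMT, a methyltransferase of nicotinamide, had 228, 190 and 205 with MFAP5 and 54.7, 48.7 and 48.4 in controls, a 4.09-fold difference. It passed the filter through its MFAP5 arrays alone, and only 2 of the 3 control arrays were above the Bacillus mark. With no filter its limma adjusted p was 0.000159, and with 50 added to each signal the fold was 2.55. SERPINA1, which encodes alpha-1-antitrypsin, had 371, 285 and 304 with MFAP5 and 78.9, 100.4 and 133.5 in controls, a 3.12-fold rise (limma adjusted p = 0.000456). In each of the 3 the groups lay apart. The related inhibitor gene SERPINA3 had a log2 fold change of -0.12 and was not called (limma adjusted p = 0.758), and 8 list genes, CRP, HP and the fibrinogen chains FGA, FGB and FGG among them, did not pass the filter.

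**Figure D3:**
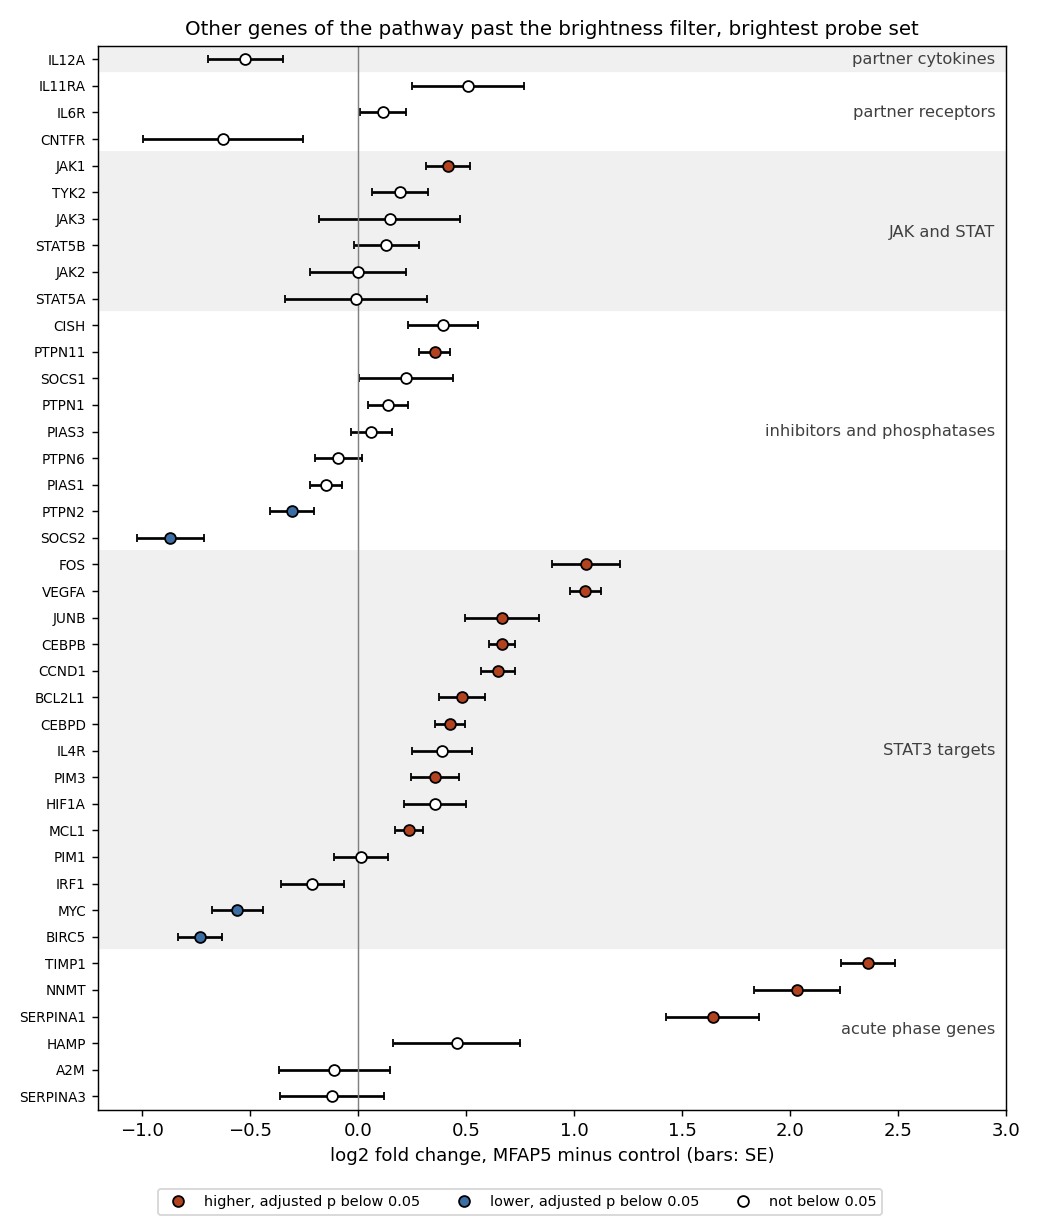
Log2 fold change, MFAP5 minus control, with SE bars for the 40 other pathway genes past the brightness filter (rows, by list), from the brightest probe set of each on 3 against 3 arrays. Filled points had a limma adjusted p below 0.05. Called rises are seen in 9 of 15 STAT3 target genes and 3 of 6 acute phase genes, beside 14.6% of all genes. The 3 include NNMT, which passed the filter through its MFAP5 arrays alone. SOCS2 and BIRC5 lie lowest among the called genes.

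The genes whose pattern over the 6 arrays was most like that of EBI3 were found by the root mean square difference of log2 signals, each taken relative to the gene's own control mean, among 12215 other genes. They were the chemokine gene CXCL14 (difference 0.14), the galectin gene LGALS14 (0.21), RGCC (0.32), the stress cytokine gene GDF15 (0.33) and the non-coding SPRY4-IT1 (0.36). LGALS14 had signals of 2302, 1982 and 1968 with MFAP5 and 239, 252 and 265 in controls. CXCL14 had 954, 869 and 869 with MFAP5 and 107, 90.2 and 69.6 in controls. SPRY4-IT1 had 272, 263 and 350 with MFAP5 and 23.5, 33.4 and 40.1 in controls. It passed the brightness filter through its MFAP5 arrays alone, and control replicate 1 lay below the Bacillus mark of its array. With only these groups, the measure mostly finds genes with a similar fold change, and all values share the same arrays.

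**Figure D4:**
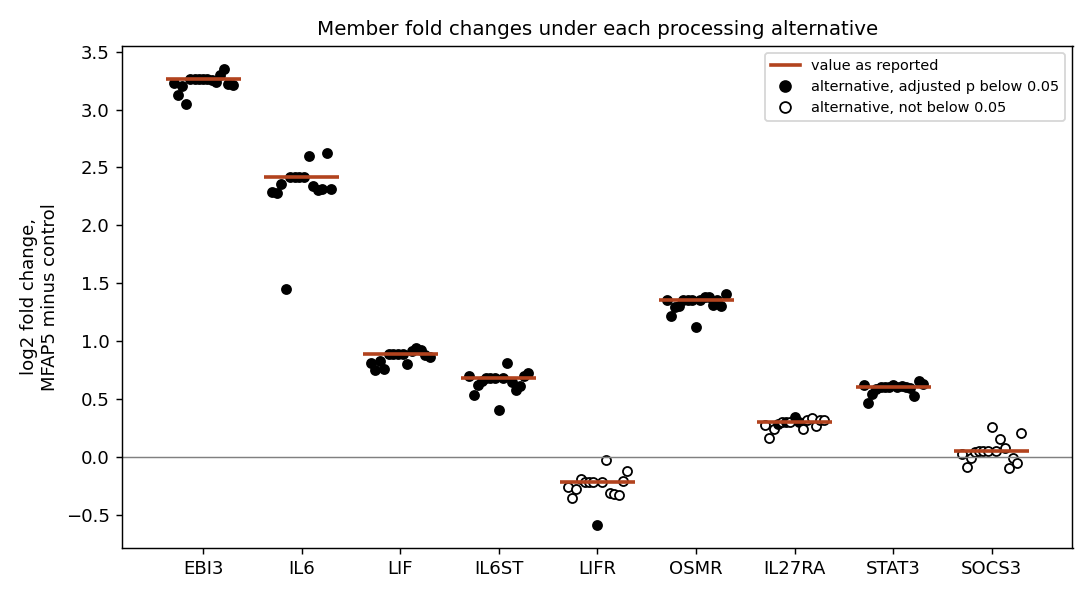
Log2 fold change of each measured gene as reported (line) and under each of the processing alternatives (points, 14 or 15 per gene, filled where the adjusted p was below 0.05). The points of EBI3, IL6, OSMR, LIF, IL6ST and STAT3 are filled throughout, though IL6 drops to 1.45 when 50 is added to each signal. IL27RA is filled in 4 of 15, and LIFR, below 0, only with the mean of its probe sets.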

How the data were processed

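RNA of 3 MFAP5 and 3 control samples of OVCA432 was measured on Affymetrix U133 Plus 2.0 arrays, and groups and replicate numbers came from the sample titles. The deposited values are intensities (MAS5 signals, linear), and MAS5 is the only tool that the submitters' processing notes name, with no version. The authors' values share a trimmed mean of 500.07 on all arrays (2% trimmed from either end), so they had been scaled per array, which hides any change common to most transcripts. Detection calls were not used here, and the number of arrays limits the precision.

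Signals were taken to log2 without a pseudocount. The 62 Affymetrix control probe sets were left out, as were probe sets whose mean log2 signal was below the median of all, a signal of 53.7. The remaining 27307 were fitted in R 4.3.3 with limma 3.58.1 (lmFit, eBayes with an intensity trend, two-sided) and adjusted together by Benjamini-Hochberg, with a threshold of 0.05. SE values are moderated by limma (residual degrees of freedom 4, prior 6.15). Each gene was represented by its brightest probe set, by mean log2 signal over the 6 arrays. Symbols come from the platform annotation, and all 9 measured genes matched the RefSeq table (GRCh38.p14) by Entrez identifier. The fit was tested on simulated data.

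A fold is a bound where all 3 signals of a group lay at or below the brightest Bacillus control of their arrays. Up to 4 called genes with the largest change were named per list or, with none called, the 2 with the smallest p. The genes and lists were chosen with earlier results of these data known. Alternatives were quantile normalization, centring on array medians or hybridisation controls, 50 added to each signal, no filter or a 75% quantile filter, no intensity trend, the mean of a gene's probe sets, a replicate block and leaving out each array.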

Additional observations from a re-analysis of the deposited data

How the results depend on the processing

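The number of measured family genes called was 5 to 8 under the 15 alternatives, against 7 as reported, and EBI3, IL6, LIF, IL6ST, OSMR and STAT3 kept their direction and call wherever they were tested. The 75% quantile filter left 7 of the 9 genes, without IL6 and LIF. Of the 40 other pathway genes, 18 were called, and 11 with centring on hybridisation controls, where 8 rather than 14 were higher. With the 75% quantile filter 9 were higher, because only 20 were tested. With 1 array left out, 14 to 18 were called, of which 11 to 15 were higher. The cause of the loss with hybridisation controls was not tested. With the replicate number as a block, 7 family genes and 19 other pathway genes were called. Deviations of arrays with the same number correlated at 0.089, -0.0071 and 0.17, and those with different numbers at -0.18 to 0.10. With 3 arrays a group, these values cannot tell whether the numbers pair the samples. Over all genes, 1780 were called higher and 1869 lower. The counts were 915 and 1092 with hybridisation controls, 1396 and 1211 without an intensity trend, and 2063 and 2194 with the replicate block. Without MFAP5 replicate 2 they were 1292 and 1229. Centring on array medians moved the median log2 fold change of all probe sets by -0.14 and gave 1118 higher and 3438 lower. Dim signals limit IL6, IL27 and the low LIFR probe sets most.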
